A study of Mus musculus with 23 samples.

Results

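A set of 10 genes that mark astrocytes, of 10138 genes measured, was followed across 23 arrays of mouse nucleus accumbens: Gfap, Aqp4, Slc1a2, Slc1a3, Aldh1l1, Gja1, Gjb6, Aldoc, Glul and S100b. Every probe annotated to them was taken if its detection p-value was under 0.01 on at least 5 arrays. Of 18 annotated probes 13 passed, each on 23 of 23 arrays, and all 10 genes kept at least 1 probe. The 5 that did not pass were 1 of Gfap and 1 of Aldh1l1, each detected on 2 arrays, and 1 of Aqp4 and 2 of Slc1a2, detected on 0 arrays.

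The study compared C57BL6 mice heterozygous for the S321X premature stop in Foxp2, which encodes a transcription factor, with wild-type littermates. Each mouse was injected intraperitoneally with either saline or 15 mg/kg of cocaine, a blocker of dopamine reuptake, and a tissue punch of the nucleus accumbens was taken 1 h later. The arrays fall into wild type with saline (n = 6), wild type with cocaine (n = 6), heterozygote with saline (n = 5) and heterozygote with cocaine (n = 6), with both sexes in each group and 1 array per animal. The labels state no age. They give the allele as S321X/+ and no driver or tissue for it, and the punch holds every cell type of the region.

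Astrocytes clear glutamate from synapses through the transporters encoded by Slc1a2 (GLT-1) and Slc1a3 (GLAST), and glutamine synthetase, encoded by Glul, converts it to glutamine. They exchange water through aquaporin 4, are joined into networks by the gap junction connexins Gja1 and Gjb6, and carry the intermediate filament protein Gfap, whose level rises in reactive astrocytes. Aldoc encodes a glycolytic aldolase, Aldh1l1 an enzyme of folate metabolism, and S100b a calcium-binding protein. In the accumbens of rodents, withdrawal from repeated cocaine is known to lower GLT-1. That background concerns repeated dosing, whereas the mice here had 1 injection.

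Between 16102 and 17933 probes were detected per array, and the number of arrays limits the precision. Levels are log2 intensities after background correction and quantile normalization, and levels of different probes are not compared. Differences were tested with limma's moderated test in a model of the 4 groups (19 residual degrees of freedom), with p-values adjusted by the Benjamini-Hochberg method across the 18509 probes in the fit. A call means an adjusted p under 0.05. Fos, an immediate-early gene, rose with cocaine by 1.44 ± 0.16 (SE), with wild-type means of 9.59 and 11.03 and heterozygous means of 9.58 and 11.02. The Foxp2 probe averaged 9.09 ± 0.12 (SD) in wild type with saline and 8.47 ± 0.41 in wild type with cocaine. It averaged 8.61 ± 0.20 in heterozygotes with saline and 7.94 ± 0.82 in heterozygotes with cocaine. Heterozygote minus wild type was -0.51 ± 0.19 (SE) averaged over injections. Cocaine minus saline was -0.65 ± 0.19 averaged over genotypes, and neither difference was called.

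The punches were not alike in neuronal markers. The mean log2 deviation of 7 measured markers of excitatory cortical neurons (of 9 listed) was -0.25 ± 0.28 (SD) in wild type with saline, 0.17 ± 0.33 in wild type with cocaine, -0.48 ± 0.54 in heterozygotes with saline and 0.48 ± 0.44 in heterozygotes with cocaine. That of 12 markers of striatal projection neurons (of 15 listed) was 0.21 ± 0.08, -0.02 ± 0.16, 0.19 ± 0.09 and -0.34 ± 0.32 in the same order. Heterozygous cocaine array 3 stood apart in another way. It had the highest endothelial score of all arrays, 0.40, and the lowest oligodendrocyte score, -0.35. In a bulk punch, fewer cells of a type and less RNA per cell cannot be told apart.

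None of the 10 astrocyte genes was called for cocaine, and the one with the largest difference was Gfap. Averaged over genotypes, 6 of the genes lay higher after cocaine and 4 lower, and 0 of 10 were called, against 4.45% of all genes. Their median difference was 0.01 on the log2 scale, beside -0.01 over all genes. Within wild type, 8 lay higher and 2 lower, 0 were called, against 0.109% of all genes, and the median was 0.06 beside 0.00. Within heterozygotes, 3 lay higher and 7 lower, 0 were called, against 2.68%, and the median was -0.06 beside -0.01. At an unadjusted p under 0.05, 1 of 10 passed averaged over genotypes, 1 within wild type and 0 within heterozygotes, where 19.2%, 8.58% and 16.5% of all genes did. The sole member among these was Gfap. The counts of direction moved when each array was left out in turn. Averaged over genotypes 4 to 7 lay higher, within wild type 7 to 9 and within heterozygotes 2 to 5.

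**Figure D1:**
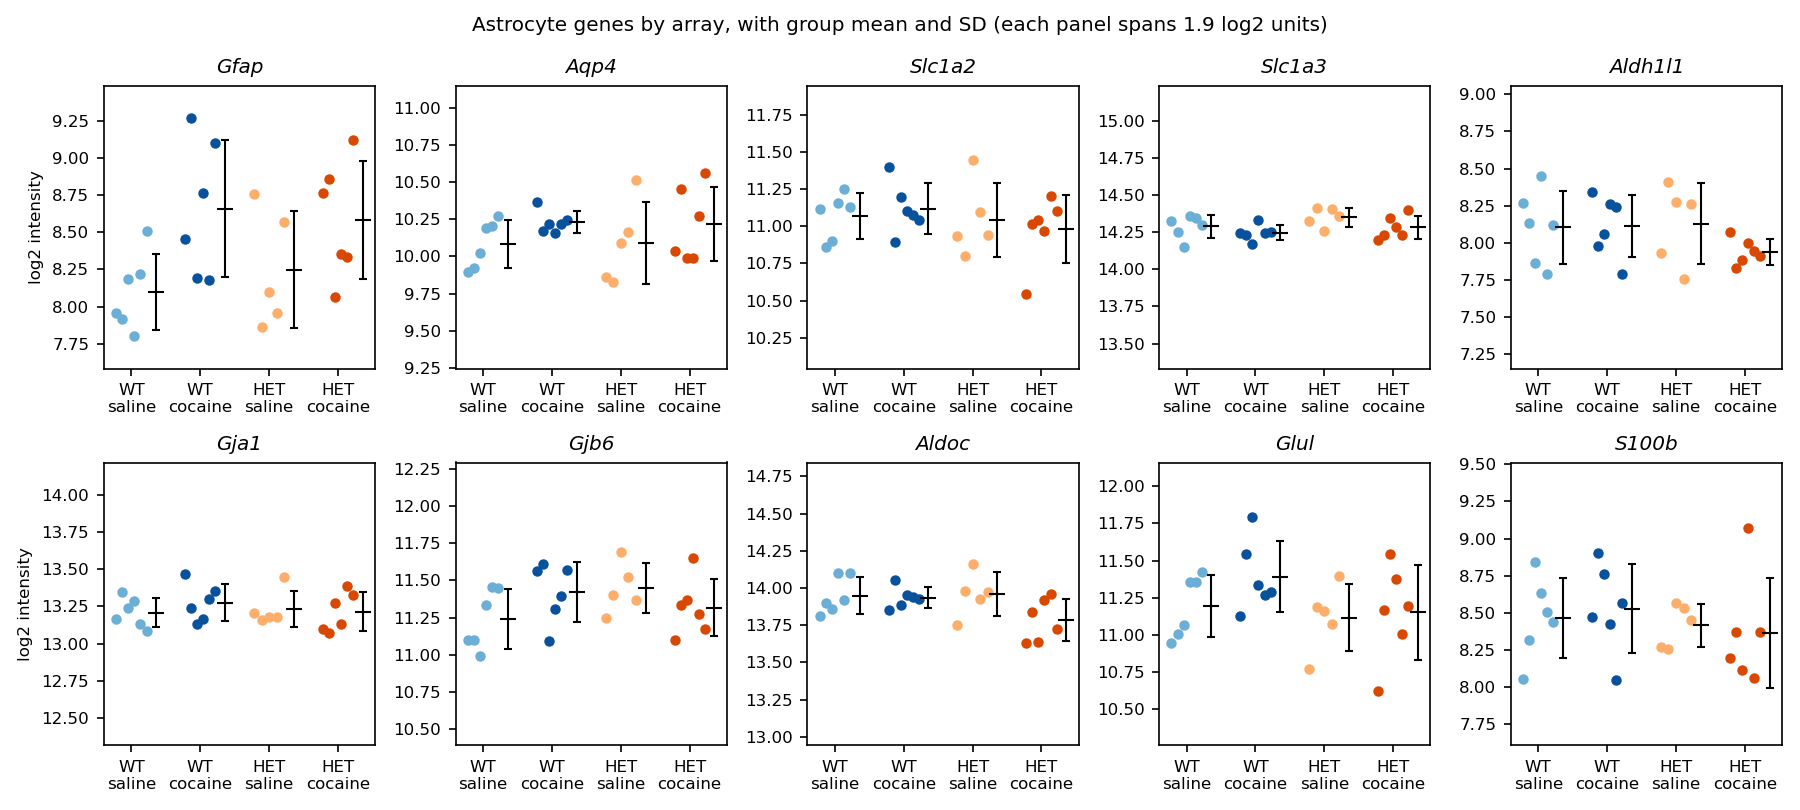
Log2 intensity of the 10 astrocyte genes on each of 23 arrays, 1 point per array, by genotype (WT, wild type; HET, heterozygote) and injection, with the group mean and SD beside the points. All panels span the same range of log2 units. The Gfap points spread widest, 6 of the 12 cocaine arrays lie above every saline array, and the Slc1a3 points lie close together in all groups.

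Gfap was read by 1 probe, ILMN_1215847. Its log2 intensity was 7.96, 7.92, 8.19, 7.80, 8.22 and 8.51 on the wild-type saline arrays. After cocaine the wild-type arrays read 8.46, 9.27, 8.19, 8.76, 8.18 and 9.10. Heterozygotes read 8.75, 7.87, 8.10, 7.96 and 8.57 after saline, and 8.76, 8.86, 8.06, 8.35, 8.34 and 9.12 after cocaine. The groups overlapped: in each genotype 3 of 6 cocaine arrays lay above every saline array of that genotype. Against all 11 saline arrays together, 6 of 12 cocaine arrays lay above the highest and 11 of 12 above the saline mean.

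Averaged over genotypes, Gfap was 0.45 ± 0.15 (SE) higher after cocaine (95% interval 0.14 to 0.76, 1.36-fold). The unadjusted p was 0.00664 and the adjusted p by limma was 0.0966, so the difference was not called. In wild type it was 0.56 ± 0.21 (adjusted p = 0.505) and in heterozygotes 0.33 ± 0.22 (adjusted p = 0.502). The interaction of genotype and cocaine was -0.23 ± 0.30 (adjusted p = 0.958), an interval of -0.85 to 0.39. Group means ran from 8.10 ± 0.26 (SD) in wild type with saline through 8.25 ± 0.39 in heterozygotes with saline and 8.58 ± 0.40 in heterozygotes with cocaine to 8.66 ± 0.46 in wild type with cocaine. Neighbours in that order differed by less than their SD.

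In the 4 blocks of 6 consecutive array numbers, with genotypes pooled, cocaine arrays exceeded saline arrays in Gfap by 0.49, 0.41, 0.54 and 0.14. Those blocks held 2, 4, 2 and 4 cocaine arrays against 4, 1, 4 and 2 saline arrays, so the value of 0.41 rests on 1 saline array. Without heterozygous cocaine array 11, the lowest of its group, the difference was 0.50 and was called (adjusted p = 0.0472), and over all 35 alternatives it lay between 0.37 and 0.51 with an adjusted p between 0.0472 and 1.00. With the score of the excitatory markers as a covariate it was 0.37 ± 0.21 (adjusted p = 1.00). The score itself was higher after cocaine, so that fit cannot tell the score and the injection apart. Within groups, Gfap followed that score weakly (Pearson's r = 0.12, Spearman's rho = 0.05, n = 23 arrays, -0.08 without the 2 arrays of most extreme score).

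The genes of glutamate uptake and conversion were not called in any comparison. Slc1a3 had the narrowest interval: cocaine minus saline was -0.06 ± 0.04 (95% interval -0.15 to 0.03, adjusted p = 0.556). Its levels ran from 14.15 to 14.36 in wild type with saline, from 14.17 to 14.33 in wild type with cocaine, from 14.25 to 14.41 in heterozygotes with saline and from 14.20 to 14.39 in heterozygotes with cocaine. The 4 ranges overlapped.

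Slc1a2 was read by 3 passing probes. Through ILMN_3076439, the probe with the highest mean and so the one that represents the gene, cocaine minus saline was -0.01 ± 0.08 (interval -0.18 to 0.17, adjusted p = 0.985). Heterozygous cocaine array 3 read 10.54 on it, the lowest of all arrays, and heterozygous saline array 14 read 11.44, the highest. The other 2 probes gave 0.05 ± 0.08 (ILMN_3123195) and 0.16 ± 0.14 (ILMN_2642339). ILMN_3123195 varied with it within groups (r = 0.52, rho = 0.45, n = 23 arrays), whereas ILMN_2642339 did not (r = -0.23 with ILMN_3076439 and -0.25 with ILMN_3123195).

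Glul ran lowest, median and highest at 10.95, 11.21 and 11.43 in wild type with saline and at 11.13, 11.31 and 11.79 in wild type with cocaine. In heterozygotes it read 10.77, 11.19, 11.16, 11.07 and 11.39 after saline, and after cocaine it ran at 10.63, 11.18 and 11.54. Both heterozygous groups overlapped with both wild-type groups. Cocaine minus saline was 0.12 ± 0.10 (adjusted p = 0.608). After cocaine, heterozygotes were -0.24 ± 0.14 against wild type (interval -0.53 to 0.05, adjusted p = 0.844), and -0.14 ± 0.13 without array 3, which holds the lowest value.

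Aqp4, the water channel of astrocyte endfeet, had levels from 9.89 to 10.27 in wild type with saline (median 10.11) and from 10.16 to 10.37 in wild type with cocaine (median 10.22). Heterozygotes read 9.87, 9.83, 10.09, 10.16 and 10.52 after saline and ran from 9.99 to 10.56 after cocaine (median 10.16). The 6 wild-type cocaine arrays were all above the wild-type saline mean, but 1 alone exceeded the highest saline array. Cocaine minus saline was 0.14 ± 0.08 averaged over genotypes (interval -0.04 to 0.31, adjusted p = 0.436).

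Of the connexins, averaged over genotypes, neither was called with cocaine: Gja1 differed by 0.02 ± 0.06 (interval -0.10 to 0.14, adjusted p = 0.894) and Gjb6 by 0.03 ± 0.08 (interval -0.14 to 0.20, adjusted p = 0.916). Gjb6 ran lowest, median and highest at 10.99, 11.22 and 11.46 in wild type with saline and at 11.09, 11.48 and 11.61 in wild type with cocaine. In heterozygotes it read 11.25, 11.40, 11.69, 11.52 and 11.37 after saline and ran at 11.10, 11.31 and 11.65 after cocaine. Cocaine minus saline was 0.19 ± 0.11 in wild type (adjusted p = 0.669) and -0.13 ± 0.12 in heterozygotes (adjusted p = 0.665).

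The interaction for Gjb6, -0.32 ± 0.16 (interval -0.65 to 0.02), had the lowest unadjusted p of the 10 genes for that contrast, 0.0631, with an adjusted p of 0.927. It was -0.26 without heterozygous saline array 14 and -0.27 without heterozygous cocaine array 3, the highest and the lowest array of the heterozygotes with those injections. Over its 35 alternatives it stayed between -0.42 and -0.26 and was called in 0.

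Aldoc, represented by ILMN_3160137, ran lowest, median and highest at 13.81, 13.91 and 14.10 in wild type with saline and at 13.85, 13.93 and 14.06 in wild type with cocaine. In heterozygotes it read 13.75, 13.98, 14.16, 13.93 and 13.98 after saline and ran at 13.63, 13.78 and 13.96 after cocaine. All 6 heterozygous cocaine arrays lay below the heterozygous saline mean and 3 below the lowest saline array. That difference was -0.17 ± 0.09 (interval -0.35 to 0.00, unadjusted p = 0.0514, adjusted p = 0.331), and -0.30 ± 0.10 (adjusted p = 0.574) without heterozygous cocaine arrays 9, 16 and 19, which had the highest excitatory scores of all arrays. In wild type it was -0.01 ± 0.08 (adjusted p = 0.982).

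Its other probe, ILMN_2613349, gave -0.13 ± 0.11 for the same contrast in heterozygotes. Within groups it ran against ILMN_3160137 (r = -0.41, rho = -0.44, n = 23 arrays). Aldh1l1 was -0.19 ± 0.13 in heterozygotes given cocaine (adjusted p = 0.524), with all 6 arrays below the saline mean, and 0.01 ± 0.12 in wild type. S100b was 0.01 ± 0.11 averaged over genotypes (interval -0.23 to 0.24, adjusted p = 0.993), and heterozygous cocaine array 16 read 9.07 while the others of its group lay between 8.06 and 8.37.

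**Figure D2:**
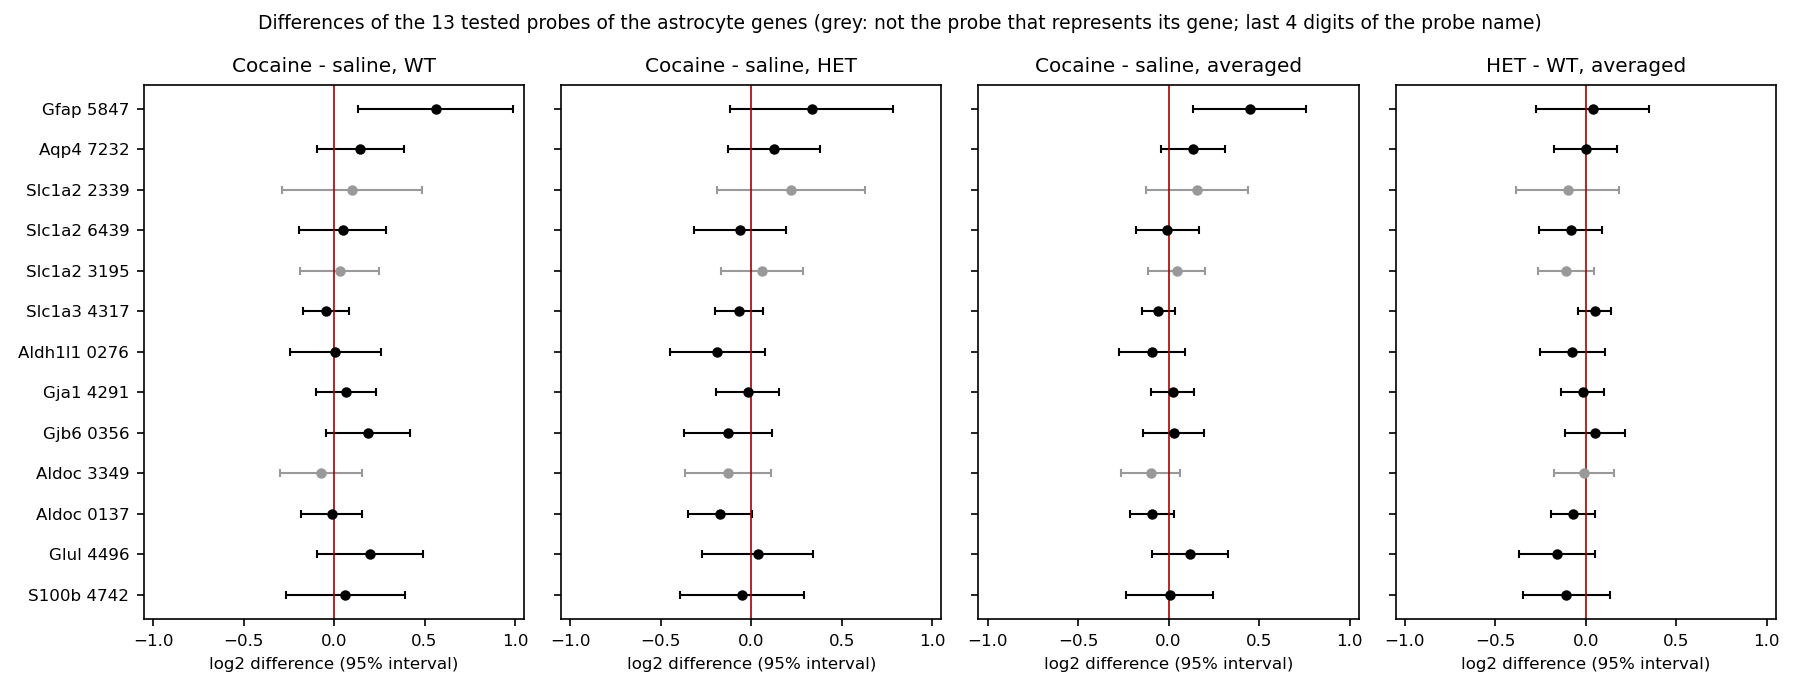
Log2 differences with 95% intervals for the 13 tested probes, in 4 comparisons, labelled by gene and the last digits of the probe name. Grey points are probes that do not represent their gene. The Gfap interval lies to the right of 0 averaged over genotypes and in wild type, no difference shown was called, and the Slc1a3 intervals are the shortest.

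Genotype was compared to see whether loss of 1 Foxp2 copy was accompanied by other levels of these genes. No gene of the 10 was called, and neither was any of the 10138: 0% averaged over injections, 0% after saline, 0% after cocaine and 0% for the interaction. At an unadjusted p under 0.05 limma passed 480, 376, 674 and 488 of all genes, and 0 of the 10 astrocyte genes each time. Averaged over injections, 3 lay higher in heterozygotes and 7 lower, with differences from -0.16 (Glul) to 0.05 (Gjb6).

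After saline, 7 lay higher and 3 lower in heterozygotes (median 0.02, beside 0.01 over all genes). After cocaine, 1 lay higher and 9 lower (median -0.12, beside 0.00). In the same contrast, the 8 oligodendrocyte markers had a median of -0.17 (highest -0.0047) and the 12 striatal markers one of -0.31 (highest -0.07). The 7 excitatory markers were all higher (median 0.37, lowest 0.07). Medians were 0.02 for endothelial, 0.03 for choroid plexus and ependyma, -0.01 for microglia and -0.02 for oligodendrocyte precursor markers. In each of these lists 0 were called. The interaction was below 0 for 10 of 10 genes, from -0.32 (Gjb6) to -0.02 (Aqp4), with a median of -0.14, while 48.6% of all genes were above 0. The median interaction was -0.19 for the 8 oligodendrocyte markers (from -0.39 to 0.05), -0.29 for the 12 striatal markers (from -0.64 to -0.03) and 0.61 for the 7 excitatory markers, with 0 called. It was 0.12 for endothelial, -0.07 for microglia, -0.08 for choroid plexus and ependyma and -0.05 for oligodendrocyte precursor markers, with 0 called. The part of these cell types in the values of the 10 genes was not tested. Leaving out each array in turn kept the interaction below 0 for 9 or 10 of the 10. Under the same check, 7 to 9 lay lower in heterozygotes after cocaine and 4 to 8 lay higher after saline. These comparisons share arrays and the 10 genes vary together in part, so the count of signs is a description, and none of the single interactions was called (adjusted p from 0.927 upward).

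Sex was recorded for each animal only with the authors' processed log2 values, in which 12 females were set against 11 males over the 4 groups. The difference was called for 0 of 10 astrocyte genes, against 1.33% of the 9274 genes there. At an unadjusted p under 0.05, 4 of 10 passed, Aqp4, Slc1a2, Gjb6 and Aldoc, where 17.9% of all genes did. All 4 were higher in females. In all, 9 of the 10 lay higher in females (median 0.10, beside 0.00 over all genes, of which 51.3% lay higher). The samples and the intensity columns follow the same sequence of groups, and Gfap values rise and fall alike in both. In that order all males are on arrays 1 to 12 and all females on arrays 13 to 24. A difference by sex therefore cannot be told apart from one by array number.

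Aqp4 was 0.19 ± 0.07 higher in females (1.14-fold, interval 0.04 to 0.35, adjusted p = 0.175), with 8 of 12 females and 2 of 11 males above their own group's mean. After saline the sexes did not overlap. The 3 wild-type males lay between 9.85 and 9.97 and the 3 females between 10.15 and 10.23, and the 2 heterozygous males read 9.78 and 9.82 against 10.04 to 10.48 in 3 females. After cocaine they overlapped in both genotypes, and the wild-type means were 10.21 in males and 10.16 in females. The interaction of sex and cocaine for Aqp4 was -0.31 (adjusted p = 0.755).

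Gjb6 was 0.17 ± 0.08 higher in females (adjusted p = 0.252) and higher in 4 of 4 groups, most in wild type with saline, where males averaged 11.03 ± 0.06 (SD, n = 3) and females 11.38 ± 0.07 (SD, n = 3). Slc1a2 was 0.17 ± 0.08 higher by ILMN_3076439 (adjusted p = 0.273), in 3 of 4 groups. Its other probes gave 0.00 ± 0.07 (ILMN_3123195, females higher in 2 of 4 groups) and -0.10 ± 0.16 (ILMN_2642339, 1 of 4). Aldoc was 0.13 ± 0.05 higher by ILMN_3160137 (adjusted p = 0.216), in 4 of 4 groups, whereas by ILMN_2613349 it was -0.21 ± 0.08 (adjusted p = 0.148) and lower in 4 of 4, so the 2 probes of that gene opposed each other. Gfap differed by 0.04 ± 0.17 between the sexes (adjusted p = 0.930). For the interaction of sex and cocaine, 0 of 10 were called, against 0% of all genes (604 genes, 6.51%, had an unadjusted p under 0.05 by limma, and 0 of the 10).

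**Figure D3:**
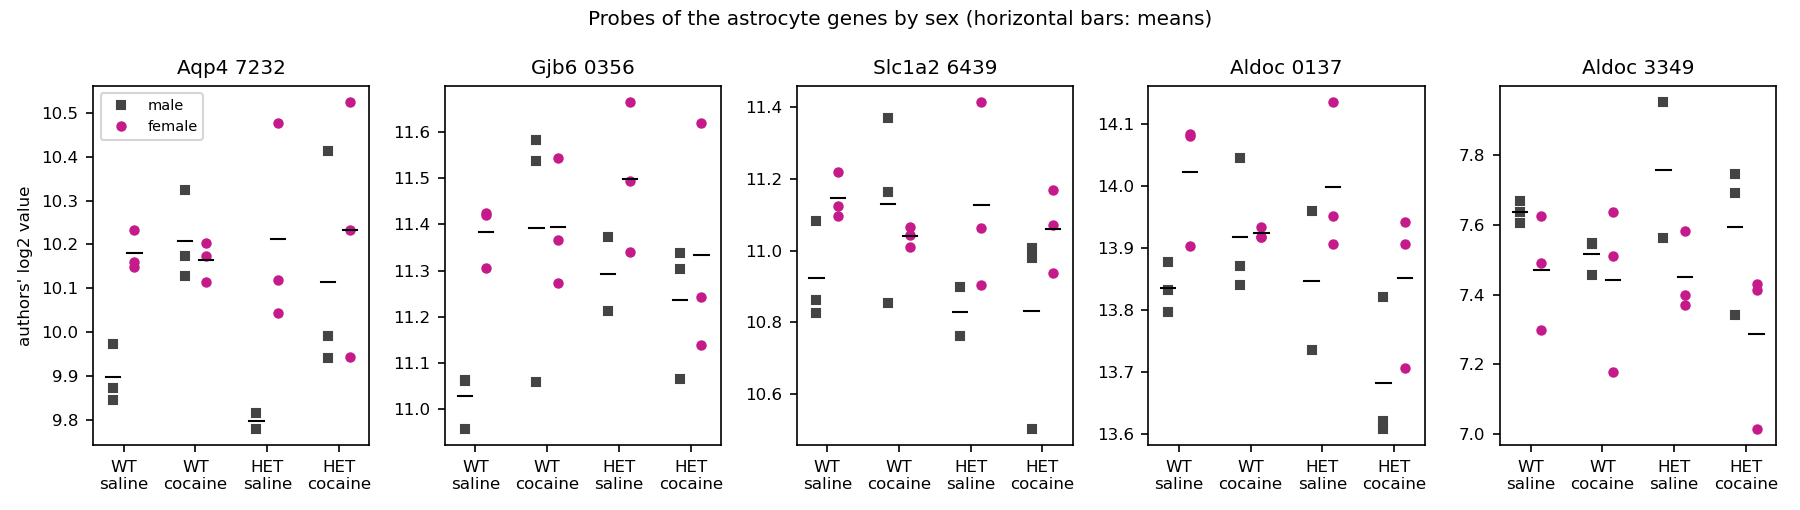
The authors' log2 values of 5 probes of Aqp4, Gjb6, Slc1a2 and Aldoc, by group and sex, with 1 point per animal and a bar at each mean. Squares are males and circles females. Males lie below females in Aqp4 and in Gjb6 after saline in wild type, and the 2 Aldoc probes differ in direction.

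The 10 genes differed in how much they varied between animals of a group. The residual SD, after removing group means, was 0.07 for Slc1a3, a value undercut by 0.109% of all genes, 0.12 for Gja1 and 0.12 for Aldoc. It was 0.19 for Gjb6, 0.20 for Slc1a2, 0.20 for Aqp4, 0.21 for Aldh1l1 and 0.25 for Glul, near the median of all genes, 0.20. S100b had 0.29 and Gfap 0.38, which was larger than in 92.7% of genes. The part of signal intensity in this spread was not tested.

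Array by array, the astrocyte genes did not rise and fall as 1 block. Among the 45 pairs of the 10 genes, the median Pearson r over 23 arrays with group means removed was 0.15, beside 0.00 over all gene pairs, and 29 pairs were above 0. The same measure was 0.23 for 28 pairs of 8 oligodendrocyte markers, 0.51 for 21 pairs of excitatory markers and 0.60 for 66 pairs of striatal markers. All of these share the array and its normalization, and they are given as descriptions.

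Gjb6 and Aldoc formed the only pair above 0.5 (r = 0.61, rho = 0.61, 0.60 without the 2 most extreme arrays), and 2.78% of all gene pairs exceeded 0.5. S100b with Glul (0.42), Glul with Aldoc (0.42), Gjb6 with Slc1a2 (0.41) and Aqp4 with Slc1a2 (0.40) followed. The lowest pair had r = -0.36. Heterozygous saline array 14 was the highest of all arrays in Gjb6, Slc1a2 and Aldoc and had the lowest excitatory score of all, -1.40. Heterozygous cocaine array 3 was the lowest in Glul, Slc1a2 and Aldoc.

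**Figure D4:**
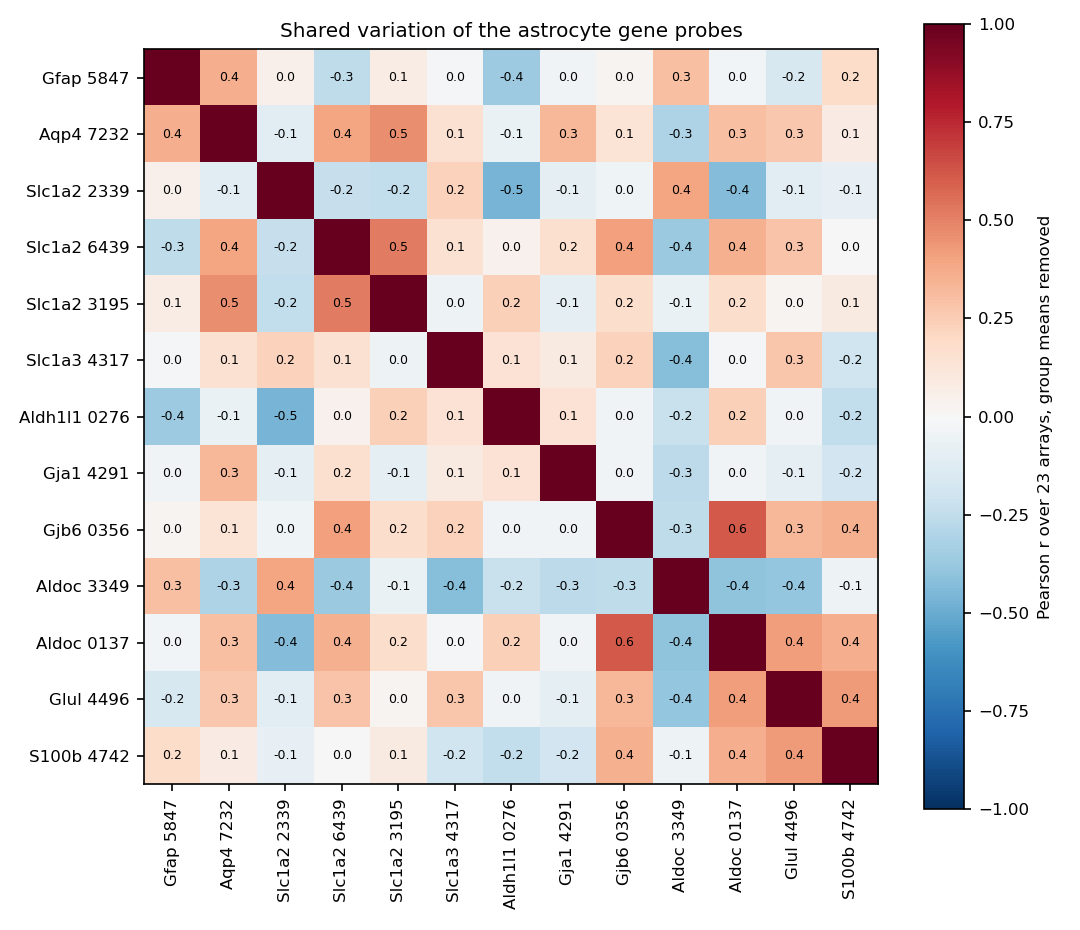
Pearson correlation between the 13 probes over 23 arrays after removal of group means, with r written in each cell to 1 decimal. Gjb6 with the Aldoc probe that represents the gene is the highest pair of different genes at 0.61, and the 2 Aldoc probes run against each other.

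The mean log2 deviation of the 10 genes was -0.04 ± 0.10 (SD) in wild type with saline, 0.08 ± 0.07 in wild type with cocaine, -0.01 ± 0.10 in heterozygotes with saline and -0.03 ± 0.10 in heterozygotes with cocaine. Single arrays ran from -0.19 (heterozygous cocaine array 3) to 0.18 (wild-type cocaine array 10). The span was smaller than that of the excitatory score, whose single arrays ran from -1.40 to 0.93. Of single genes against marker scores, 2 exceeded 0.5 in size within groups. Slc1a2 followed the oligodendrocyte score (r = 0.58, rho = 0.39), which fell to 0.33 without the 2 most extreme arrays, and Aldoc ran against the score of 2 choroid plexus and ependyma markers (r = -0.54, rho = -0.58, -0.56 without 2 arrays).

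**Figure D5:**
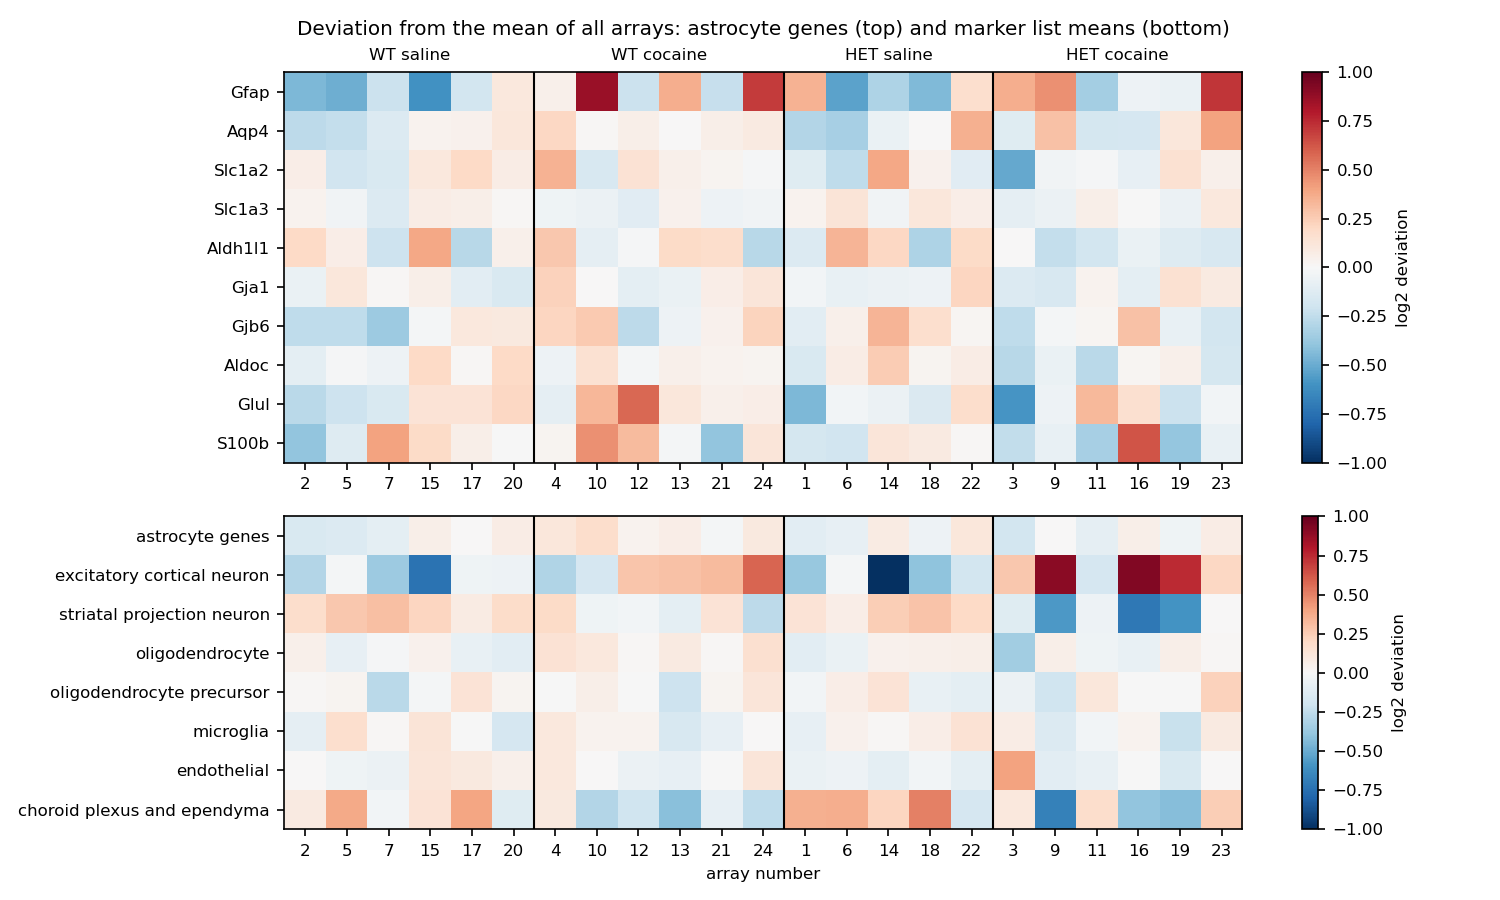
Deviation (log2) from each row's mean over 23 arrays for the 10 astrocyte genes (top) and for the mean of each marker list (bottom), with 1 column per array and vertical lines between groups. Colours saturate at -1 and 1, beyond which lies the excitatory score of array 14 (-1.40). The excitatory and striatal rows change more between arrays than the row of the astrocyte genes.

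Over the 23 arrays with group means removed, the 5 other genes most like the mean of the 10 were Pts (r = 0.84), Lyar (0.83), Capn10 (0.83), Prkcq (0.79) and Coa6 (0.79), of 10128 compared. Gene by gene, the nearest was Gstm2 for Gfap (0.75), Cox7a2 for Aqp4 (0.80), Pes1 for Slc1a2 (0.75), Rasip1 for Slc1a3 (0.78) and Fgf1 for Aldh1l1 (0.78). For Gja1 it was Slc22a5 (0.81), for Gjb6 Mcee (0.76), for Aldoc Pcolce2 (0.76), for Glul Naca (0.86) and for S100b Elf2 (0.81). Each is the highest of many correlations and is given as a description.

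Beyond the 10, 6 lists name 88 other genes of astrocyte function, of which 64 were measured. Averaged over genotypes, 3 of 64 were called higher after cocaine and 0 lower, against 4.45% of all genes in either direction. By list, 0 of 5 genes of potassium, water and ion handling were called, 0 of 11 of amino acid transport and metabolism, 0 of 4 other connexins, 0 of 8 reactive astrocyte genes, 1 of 25 other astrocyte-enriched genes and 2 of 11 transcription factors. The median difference of the 64 was -0.02. That of the 25 other astrocyte-enriched genes was -0.07, with 0.02 in wild type and -0.15 in heterozygotes. In heterozygotes 8 of these 25 had an unadjusted p under 0.05 by limma, against 16.5% of all genes, and 0 were called. Dio2 was higher among them, and Gpc5, Bcan, Cyp2d22, Sparc, Apoe, Plpp3 and Slc39a12 were lower. In wild type 1 of 25 passed, against 8.58%.

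Dio2, a deiodinase that activates thyroid hormone, rose by 0.44 ± 0.10 (adjusted p = 0.0188), with means of 10.18 and 10.60 in wild type after saline and cocaine and 10.19 and 10.65 in heterozygotes. On 7 of 12 cocaine arrays it lay above every saline array. Nfix, a nuclear factor I transcription factor also expressed in neurons, rose by 0.36 ± 0.08 (adjusted p = 0.0193), with 8 of 12 above every saline array. Rorb, an orphan nuclear receptor that also marks cortical neurons, rose by 0.45 ± 0.12 (adjusted p = 0.0411), with 8 of 12.

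Neuronal marker lists also differed with cocaine. Averaged over genotypes, 4 of 7 excitatory markers were called higher after cocaine (median 0.71) and 7 of 12 striatal markers lower (median -0.40). Of 2 choroid plexus and ependyma markers, 1 was called lower (median -0.37). Of all genes, 4.45% were called in either direction. Of the other marker lists, 0 of 8 oligodendrocyte, 0 of 5 oligodendrocyte precursor, 0 of 8 microglia and 0 of 7 endothelial markers were called. With the excitatory score as a covariate, Dio2 was 0.13 ± 0.11, Nfix 0.07 ± 0.08 and Rorb 0.18 ± 0.15, none called (adjusted p = 1.00 each). The score itself was higher after cocaine, so the covariate can take up part of any cocaine difference. That fit cannot tell the score and the injection apart. Without heterozygous cocaine arrays 9, 16 and 19, Dio2 was 0.35 (adjusted p = 0.234), Nfix 0.25 (0.233) and Rorb 0.32 (0.347).

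In heterozygotes alone, Nfix was called, at 0.49 ± 0.12 (adjusted p = 0.0346, 5 of 6 cocaine arrays above every saline array). It was the only 1 of 64 called, against 2.68% of all genes. The call was lost in 10 of 36 alternatives. They include leaving out any of heterozygous cocaine arrays 9, 16 or 19 (0.44, 0.49 and 0.42) or heterozygous saline arrays 14 or 18 (0.41 and 0.45), with adjusted p from 0.0827 to 0.130. With the excitatory score as a covariate, a fit with the limit given above, Nfix was 0.09 there (adjusted p = 1.00). In wild type 0 of 64 were called, against 0.109% of all genes. The smallest p there belonged to Dio2 (0.42 ± 0.14, adjusted p = 0.486) and Rorb (0.39 ± 0.17, adjusted p = 0.555). Between genotypes 0 of 64 were called in any comparison, against 0% of all genes. The smallest p belonged to Serpina3n, a serpin of reactive astrocytes (0.37 ± 0.13, adjusted p = 0.954), and Nfix (0.21, adjusted p = 1.00) averaged over injections. After saline they were Slc6a11, a GABA transporter (0.38, adjusted p = 0.999), and Prodh, proline dehydrogenase (-0.18, adjusted p = 0.999). After cocaine they were Nfix (0.34, adjusted p = 0.654) and Gpc5, a glypican (-0.17, adjusted p = 0.664). For the interaction they were Gpc5 (-0.28, adjusted p = 0.927) and Sparc, a matricellular protein (-0.59, adjusted p = 0.927).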

How the data were processed

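Per the labels' protocols, mirVana extracts of 23 nucleus accumbens punches were made into biotinylated cRNA (Illumina TotalPrep-96). The platform was the Illumina MouseWG-6 v2 array. The deposited intensity of each probe is non-normalized, per the file headers. Between 24.9% and 30.3% of values per array were below 0, so background had been subtracted before deposit, by software not given in the sources used here. A detection p-value accompanies each deposited intensity, per the file headers. The authors' deposited log2 values hold the same sorted values on every array and cover 9274 genes.

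Columns of intensities name the genotype, injection and array number (1 to 24, without 8) but not the animal, and sex was tested in the authors' values only. The columns have the same sequence of groups as the samples, and Gfap rises and falls alike in both. Arrays can thus be matched to animals by order, but no test was run on that match. Intensities were processed with neqc (limma 3.58.1, run under R 4.3.3, offset 16, control moments inferred from detection p-values). A probe stayed if its detection p was under 0.01 on 5 or more arrays. Each gene was represented by its passing probe with the highest mean, and probes are named by the platform annotation, which can be old (34885 probes have 1 gene, 18 several and 10378 none). The 4-group and sex models were fitted with limma, two-sided, and tested on simulated data. Alternatives covered background correction, offset, filter, variance model, array weights, authors' values, a replicate block, blocks of 6 array numbers, neuronal scores as covariates and leaving out arrays.

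The named genes were all detected probes of the 10 members and, of the 6 other astrocyte lists, those called in a comparison or, with none called, the 2 with the smallest p. For likeness, the 5 genes with the highest r to the members' mean and the nearest 1 for each member were named, and Foxp2 and Fos served as checks. The members and lists were chosen with earlier results of these data known.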

Additional observations from a re-analysis of the deposited data

Results flagged for a closer look

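In 52 sets of values (13 probes in 4 groups), 5 held 1 array separated from the rest of its group by more than Dixon's 95% criterion, which chance alone exceeds in about 1 set of 20. Heterozygous saline array 22 read 13.45 for Gja1, above the next value of 13.20. Heterozygous cocaine array 16 read 9.07 for S100b, above 8.37. Heterozygous cocaine array 3 read 10.54 on the Slc1a2 probe ILMN_3076439, below the next value of 10.97, and had the highest endothelial score of all arrays, 0.40, and the lowest oligodendrocyte score, -0.35. On the Slc1a2 probe ILMN_3123195, wild-type cocaine array 4 read 10.41, above 10.08, and heterozygous saline array 14 read 10.16, above 9.93. These gaps were close to the criterion: as a share of the group's range, 0.638 against 0.625 and 0.7105 against 0.71. The 2 Slc1a2 probes named here vary together (r = 0.52), so their sets are not independent. Array 14 also had the lowest excitatory score, -1.40.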

How the results depend on the processing

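Over 90 results of the 10 genes and 2990 values under alternatives, 1 value was called, and 147 differences that were not called changed sign, in 31 of the results. The exception was Gfap with cocaine averaged over genotypes without heterozygous cocaine array 11, so that leaving out each array gave 0 to 1 called genes there. The group levels, each taken against the mean of all arrays, moved by less than 1 SD in all 80 comparisons with an alternative. Of the 64 other astrocyte genes, 3 were called with cocaine averaged over genotypes. That count was 5 with detection on all arrays and with an intensity trend with robust moderation, 1 with blocks of 6 array numbers (Dio2 adjusted p = 0.0566, Rorb 0.123), 0 without heterozygous cocaine arrays 9, 16 and 19, 0 with the excitatory and 0 with the striatal score as a covariate, and 2 to 5 when each array was left out (5 without heterozygous cocaine array 3). Over its 35 alternatives Nfix was called in 32, Dio2 in 31 and Rorb in 16. In heterozygotes the count of 1 became 0 with no filter, 0 with only the groups compared, 0 without arrays 9, 16 and 19, and 0 with either score. Leaving out each array gave 0 to 4, with 4 without heterozygous cocaine array 11, 2 without heterozygous saline array 1 or cocaine array 3, and 0 without heterozygous cocaine array 9, 16 or 19 or saline array 14 or 18. The share of all genes called was not counted under these alternatives, so the counts cannot be set beside one. The cause of these moves was not tested.

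With a replicate block in the authors' values, 0 of the 10 genes were called in any comparison, and Gfap with cocaine was 0.42 ± 0.14 (adjusted p = 0.0884). Deviations of the 33 same-numbered pairs had a median r of 0.08 (-0.26 to 0.42), those of 165 other pairs -0.02, and 7 of 23 samples were most like one of their own number. Whether the numbers mark pairs was not tested, and the main model did not use them. The block was not run for sex, because the numbers nearly determine the sex. All 13 probes were detected above background on every array.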
